A study of Rattus norvegicus with 12 samples.

Results

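Circular RNAs (circRNAs) from genes of the ubiquitin system were examined in livers of diabetic rats. A circRNA is a closed loop formed when the end of one exon is joined back to the start of an earlier one, and it is recognised by reads across that back-splice junction. Host genes were taken by name: the ubiquitin-specific peptidases (Usp), the conjugating enzymes and ligases named Ube, and the Ubr, Trim, F-box (Fbxl, Fbxo, Fbxw), Herc and cullin (Cul) families. Entries named only by an Ensembl identifier were added where they shared a transcript with such a gene. This gave 106 of the 6501 host genes in the table, with 483 of its 21876 circRNA entries (435 named by symbol and 48 added through the transcript) and 468 of its 21068 distinct junctions. The names are wider than the enzyme activities: Ube2 genes encode conjugating enzymes, not ligases, cullins are scaffolds, F-box proteins are adaptors, Trim14 lacks the RING domain of a ligase, and Usp6nl encodes a GTPase-activating protein with no peptidase activity.

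Ubiquitin is attached to proteins by enzymes that act in sequence: an activating enzyme (E1), a conjugating enzyme (E2) and a ligase (E3), and the ligase chooses the substrate. Cullin-RING ligases are assembled on a cullin scaffold and pick substrates through exchangeable adaptors, among them the F-box proteins. Deubiquitinases, of which the Usp family is the largest, take ubiquitin off again. In liver the system turns over metabolic enzymes, signalling proteins and misfolded proteins of the secretory pathway.

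All 12 libraries came from liver of wild type Wistar rats that had eaten a diet with 60% of calories as fat for 4 weeks and were then fasted for 16 h and injected with 35 mg/kg streptozotocin, which kills insulin-producing cells. Rats whose fasting glucose stayed above 16.7 mmol/L 3 days later entered the study. The groups were relapse of diabetes after sleeve gastrectomy (n = 2), sleeve gastrectomy sampled after 3 months (n = 5), in which the stomach is cut down to a narrow tube, and sham operation (n = 5). The diet and the toxin were common to all 3 groups. The sampling time of the relapse and sham groups is not given in the sources used here, and no label says that libraries are from separate animals, so the p-values reflect the spread among these samples, which may be technical. Where livers are counted below, libraries are meant. Linear RNA had been digested with RNase R, so the values describe circles and not the messenger RNAs of these genes.

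The libraries held 18176 to 37229 back-splice reads, and no pair of libraries of the same group agreed within sampling noise. Levels are back-splice reads per 1000000 back-splice reads of the library (RPM); a single read was worth 26.9 to 55.0 RPM, and a count of 0 allows up to 80.6 to 165 RPM, counting error only. Of 20 hepatocyte marker genes, 17 were detected as hosts (Apoa1, Cyp3a2 and Ttr were at 0), with a summed level of 24847 to 28096 RPM in relapse libraries, 29825 to 42578 RPM after sleeve gastrectomy and 31126 to 45334 RPM in sham libraries. The lower hepatocyte marker sum in relapse stands beside every relapse comparison here, and its part in them was not tested. The markers did not all go lower. Of the 11 that could be tested, 4 had a log2 fold change above 0 in relapse over sleeve gastrectomy and 4 in relapse over sham. Cyp2c7 was the most abundant marker and had the smallest p in both. Endothelial markers (6 of 10 detected; Cdh5, Clec4g, Lyve1 and Pecam1 at 0) summed to 886 to 1353 RPM in relapse, 473 to 1409 RPM after sleeve gastrectomy and 275 to 903 RPM in sham libraries. Macrophage markers (3 of 10; Cd163, Cd68 and Clec4f among those at 0) summed to 108 to 242 RPM, 34.2 to 835 RPM and 52.1 to 511 RPM in relapse, sleeve gastrectomy and sham libraries, and stellate cell markers (3 of 10; Acta2, Col1a1, Des and Lrat among those at 0) to 80.6 to 217 RPM, 0.0 to 246 RPM and 0.0 to 232 RPM. Lymphocyte and erythroid lists each had 1 detected gene (of 12 and of 8), and 0 of 7 cholangiocyte and 0 of 11 pancreas and gut markers had a circle. In bulk liver, fewer cells of a type and less circular RNA per cell cannot be told apart.

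The 106 hosts held 3605 back-splice reads in all, and their share of the circular output was similar in every group. They took 1.32% ± 0.0338 of back-splice reads in relapse libraries (SD, n = 2), 1.29% ± 0.160 after sleeve gastrectomy (SD, n = 5) and 1.25% ± 0.0968 in sham libraries (SD, n = 5). Single libraries ran from 1.11% to 1.51%, both after sleeve gastrectomy, so the group means lay well within that group's own range.

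The reads were concentrated in few genes. The 10 largest hosts held 2121 reads, 58.8% of the total, while 36 hosts had 5 reads or fewer in all 12 libraries together and 20 were read in a single library. The median host had 11 reads, and 13 hosts were read in every library. For this reason 25 of the 106 hosts could be tested; the other 81 held 717 reads, 19.9% of the total, and the best covered of them, Ube2d2, had 41 reads. Passing the filter depended on reads in the samples, so the tested hosts do not stand for all members.

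By name group, the Usp genes were most numerous and took the most reads, with 33 genes and 815 reads, 22.6% of the total; Usp6nl, which is no deubiquitinase, gave 11 of these reads. The Ube2 conjugating enzymes (13 genes) had 497 reads, the Ubr ligases (6 genes) 499, the Herc ligases (5 genes) 484, the Trim proteins (10 genes) 377 and the Ube3 and Ube4 ligases (6 genes) 349. Among the adaptors, the 5 Fbxw genes had 248 reads, the 15 Fbxo genes 214 and the 7 Fbxl genes 64. The cullins themselves were sparse, with 58 reads over 6 genes, and no cullin or Fbxl gene could be tested. Usp circles took 0.357% and 0.349% of reads in the relapse libraries, 0.192% to 0.340% after sleeve gastrectomy and 0.198% to 0.318% in sham libraries, so both relapse libraries lay above the 10 others. Fbxo circles took 0.0487% and 0.0430% in relapse libraries, 0.0662% to 0.151% after sleeve gastrectomy and 0.0451% to 0.120% in sham libraries, so the relapse values lay below every sleeve gastrectomy library and overlapped the sham libraries. These shares are descriptions with no test.

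**Figure D1:**
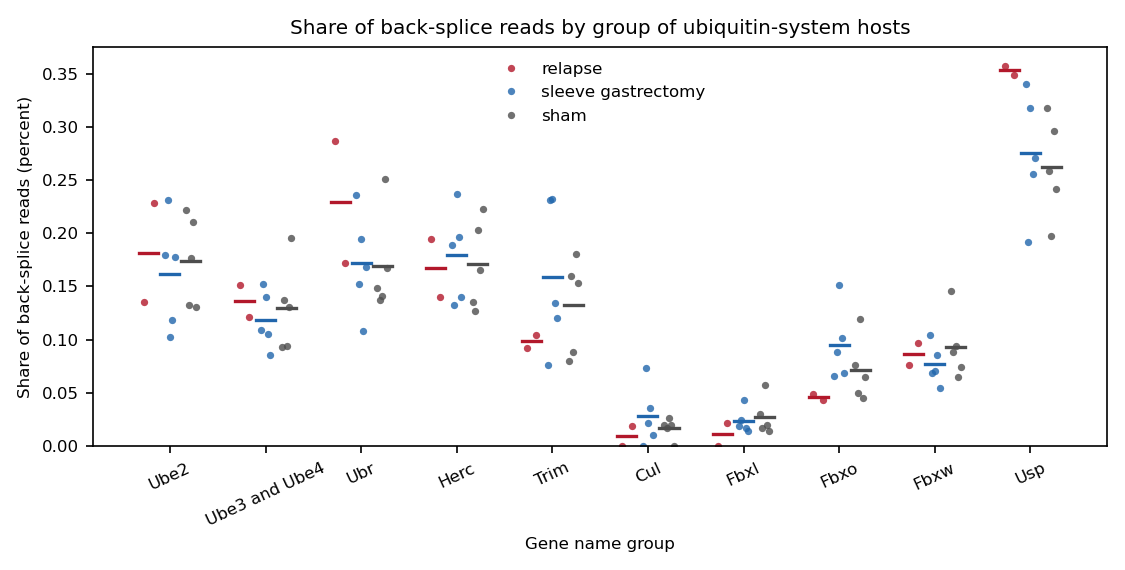
Share of all back-splice reads (percent) taken by each name group of hosts, 1 point per library, with relapse left of sleeve gastrectomy and sham, and a bar at the group mean. The Usp group averaged 0.353% in relapse, 0.275% after sleeve gastrectomy and 0.262% in sham libraries, and most other groups overlapped widely.

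Among conjugating enzymes, most back-splice reads came from Ube2h, which serves the CTLH ligase complex, and Ube2k, which builds the chains that mark proteins for the proteasome. Ube2h had 108 and 1370 RPM in relapse libraries, 851, 491, 431, 32.8 and 616 RPM after sleeve gastrectomy, and 662, 385, 625, 702 and 558 RPM in sham libraries. Relapse library 2 was the highest of all, relapse library 1 and sleeve gastrectomy library 4 were the lowest, and sham livers were the most even. Both low values depend on how identifier entries are assigned: with those at the same junction also counted, Ube2h had 541 and 1370 RPM in relapse libraries, 851, 491, 593, 229 and 616 RPM after sleeve gastrectomy, and the same sham values. Ube2k had 758 and 510 RPM in relapse libraries, 216 to 639 RPM after sleeve gastrectomy and 275 to 752 RPM in sham libraries, with overlap throughout. The main Ube2h circle (circRNA5815 and circRNA11581, 2 entries for 1 junction) runs from exon 2 to exon 6 at chr4:57539278-57561542 on the minus strand of Rnor_6.0 and had 118 reads by its position, 0 of them in relapse library 1 and 35 in relapse library 2. The main Ube2k circle, circRNA757, holds exons 2 to 4 (chr14:44305780-44323368, minus strand) and had 105 reads, found in all 12 libraries.

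Ube2g1, another conjugating enzyme, lay lower in relapse than after sleeve gastrectomy. It had 54.1 and 53.7 RPM in relapse libraries, 236, 393, 324, 197 and 137 RPM after sleeve gastrectomy, and 132, 275, 208, 0.0 and 93.0 RPM in sham libraries. Both relapse livers lay below all 5 sleeve gastrectomy livers and above 1 sham liver. The relapse values rest on 1 and 2 reads. Identifier entries, which rarely hold a single read, gave 20 of its 47 reads, and with symbol entries alone Ube2g1 could not be tested. The log2 fold change of relapse over sleeve gastrectomy was -2.15 (SE 1.37, edgeR quasi-likelihood adjusted p = 0.9997) and did not pass the test.

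The Ube3 and Ube4 ligases were led by Ube3d, a ligase that binds the conjugating enzyme Ube2c, and Ube3a, the ligase lost in Angelman syndrome. Ube3a had 325 and 269 RPM in relapse libraries, 137 to 737 RPM after sleeve gastrectomy and 208 to 852 RPM in sham libraries. Nearly all of its reads (117 of 119) came from circRNA2781, a circle of 3 exons at chr1:116604550-116610544 on the plus strand. Ube3d had 1137 and 457 RPM in relapse libraries, 284, 197, 647, 393 and 377 RPM after sleeve gastrectomy, and 265, 605, 573, 301 and 1348 RPM in sham libraries. The 2 highest libraries, relapse 1 and sham 5, came from different groups, and the sleeve gastrectomy livers were the most even.

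Ube3d formed 12 circles, and 6 of them ended at the same exon, exon 8, joined back to a different upstream exon in each. These 6 share the genomic position 94069185 on chromosome 8 (minus strand) and held 135 of the 162 reads of all Ube3d junctions, 83.3%. A junction sums every entry at its position, so the junctions hold more reads than the 148 that were joined to the gene through its transcripts. The shortest of them, exons 7 and 8 (circRNA12210 and circRNA2413), had 19 and 6 reads in relapse libraries, 2, 1, 4, 3 and 4 reads after sleeve gastrectomy, and 1, 1, 1, 0 and 6 reads in sham libraries. Relapse library 1 alone stood far above the rest. Its log2 fold change was 2.19 for relapse over sleeve gastrectomy (SE 1.08, edgeR adjusted p = 0.9995) and 2.69 for relapse over sham (SE 1.10, adjusted p = 0.706), and neither passed. Without relapse library 1 the same differences were 0.50 and 1.01. The longer circle of exons 4 to 8, circRNA2414, was read in both relapse libraries (2 and 5 reads), in 3 of the 5 sleeve gastrectomy libraries (2, 7 and 2 reads) and in all 5 sham libraries (5, 2, 6, 2 and 7 reads).

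**Figure D2:**
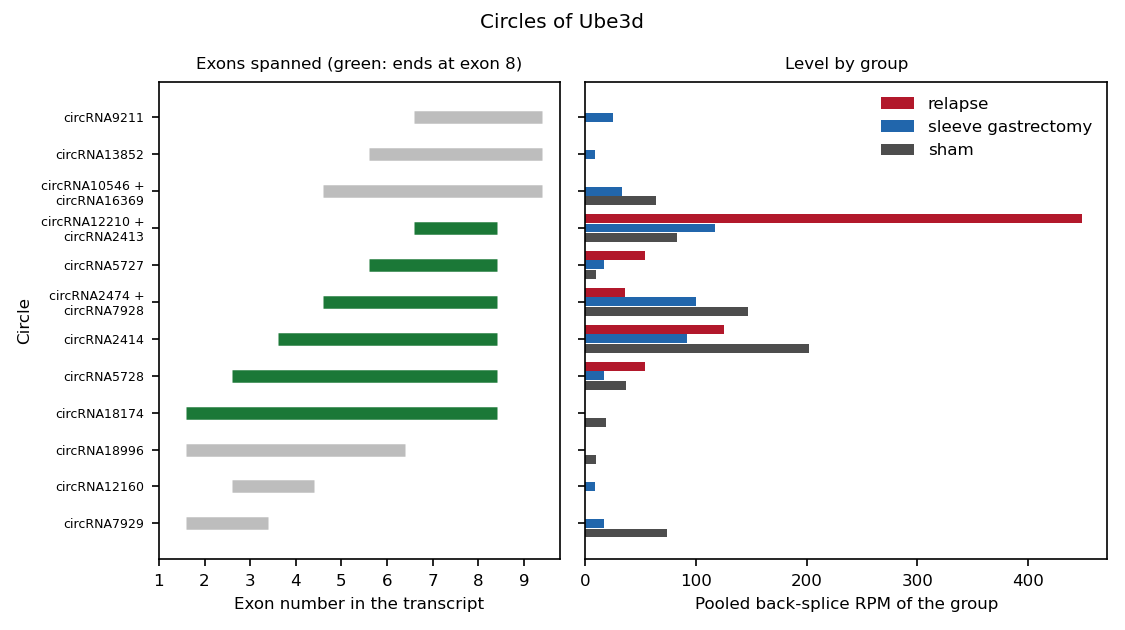
The 12 circles of Ube3d, with the exons each spans on the left (exon number in its transcript; green bars end at exon 8) and the group's pooled level on the right (RPM over all libraries of the group; bars for relapse, sleeve gastrectomy and sham). The relapse bar of the circle of exons 7 and 8 comes from 19 reads in 1 library and 6 in the other.

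Ubr proteins recognise destabilising residues at the start of a protein, or belong to that family by their UBR box. Ubr3, the most abundant, was even: 596 and 698 RPM in relapse libraries, 485 to 662 RPM after sleeve gastrectomy and 497 to 825 RPM in sham libraries. Its largest circle, circRNA1656 (exons 2 and 3, chr3:56148806-56152705, plus strand), had 78 of its 174 reads. Ubr1 had 1083 and 349 RPM in relapse libraries, 567, 295, 593, 229 and 411 RPM after sleeve gastrectomy, and 265, 165, 208, 552 and 233 RPM in sham libraries. Relapse library 1 was the highest of the 12, and relapse library 2 was below 3 sleeve gastrectomy livers and 1 sham liver. The log2 fold change of Ubr1 in relapse over sham was 1.21 (SE 0.65, edgeR adjusted p = 0.856), and it was 0.34 without relapse library 1.

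Ubr2, a close relative of Ubr1, was the 1 tested member with relapse livers below every liver of both other groups. It had 54.1 and 134 RPM in relapse libraries (1 and 5 reads), 662, 246, 162, 295 and 171 RPM after sleeve gastrectomy, and 430, 220, 156, 251 and 186 RPM in sham libraries. The highest relapse value was thus under the lowest of the 10 other values, but by less than 1 read is worth. Sham library 3 and sleeve gastrectomy library 3, the lowest of their groups, rest on 3 reads each. Its log2 fold change was -1.56 against sleeve gastrectomy (SE 1.03, edgeR adjusted p = 0.9997) and -1.30 against sham (SE 1.03, adjusted p = 0.983), and neither passed. Leaving out 1 library moved these differences between -2.49 and -1.11 and between -2.23 and -0.85, and both were largest without relapse library 2. Ubr4, a large member of the same family, had 217 and 510 RPM in relapse libraries, 65.5 to 308 RPM after sleeve gastrectomy and 132 to 552 RPM in sham libraries. Its log2 fold change of relapse over sleeve gastrectomy was 1.22 (SE 0.90, edgeR adjusted p = 0.9997), and it was 0.35 without relapse library 2.

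Herc1, a giant HECT ligase, was among the steadiest hosts. It had 1245 and 1101 RPM in relapse libraries, 1323, 1277, 1672, 1507 and 1198 RPM after sleeve gastrectomy, and 1125, 1155, 1405, 1203 and 1906 RPM in sham libraries. Its log2 fold change was -0.29 for relapse over sleeve gastrectomy (SE 0.38), -0.24 for relapse over sham (SE 0.38) and 0.05 for sleeve gastrectomy over sham (SE 0.29). One circle, circRNA2394 of exons 40 and 41 (chr8:72138879-72148728, plus strand), gave 295 of its 377 reads, 78.2%, was read in all libraries and had the lowest coefficient of variation of any member circle read in every library, 23.3% over the 12 libraries. Herc4 was uneven, with 433 and 80.6 RPM in relapse libraries, 520, 0.0, 485, 426 and 103 RPM after sleeve gastrectomy, and 165, 0.0, 573, 0.0 and 0.0 RPM in sham libraries.

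**Figure D3:**
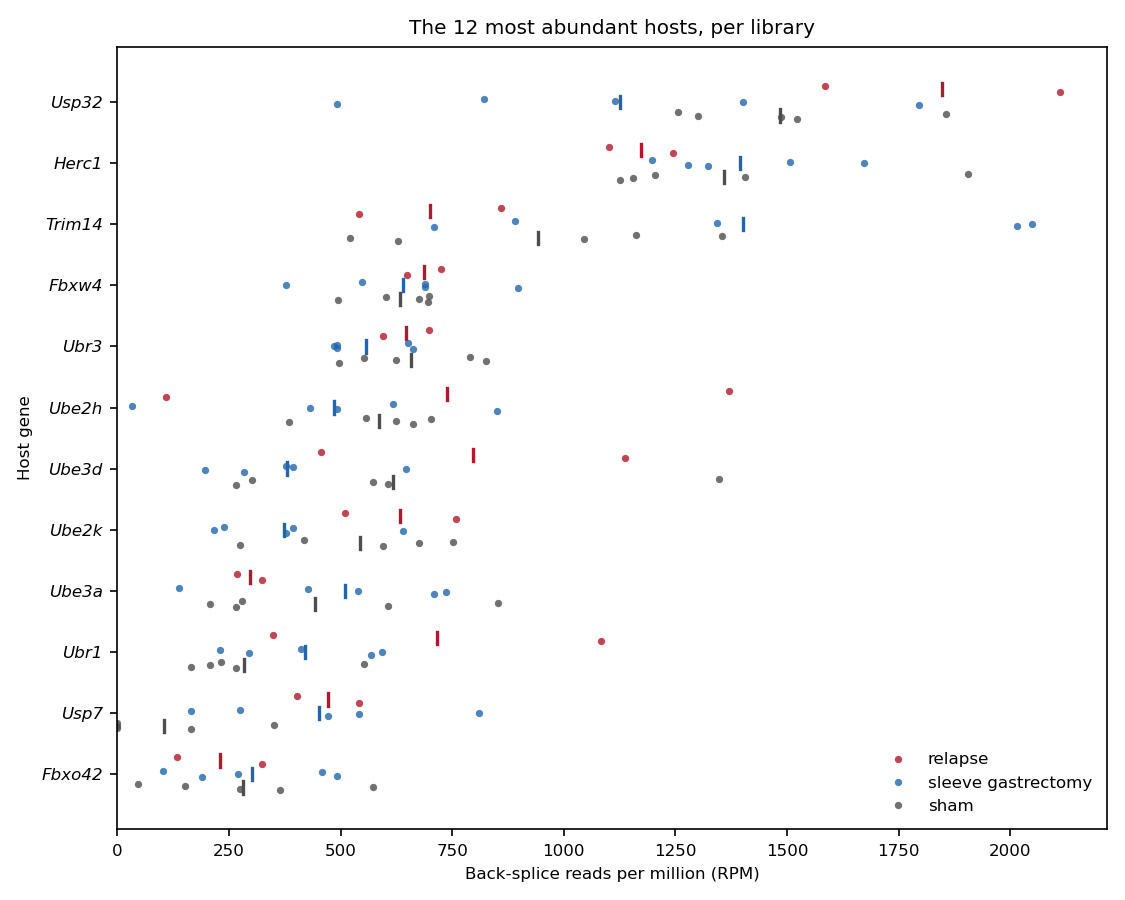
Back-splice level (RPM, horizontal axis) of the 12 hosts with the highest mean over all libraries, 1 point per library and a tick at the group mean, with relapse above sleeve gastrectomy and sham. Herc1 and Fbxw4 cluster tightly, whereas the 2 relapse points of Ubr1, at 1083 and 349 RPM, lie far apart.

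Trim14, an adaptor of antiviral signalling, was the third most abundant host. It had 541 and 859.5 RPM in relapse libraries, 709, 2015, 2049.5, 1343 and 890.3 RPM after sleeve gastrectomy, and 629, 1045, 520.5, 1354 and 1162 RPM in sham libraries. The 2 highest libraries were sleeve gastrectomy livers 2 and 3, and the relapse livers overlapped the lower sleeve gastrectomy livers. Its log2 fold change was -0.97 for relapse over sleeve gastrectomy (SE 0.47, edgeR adjusted p = 0.9997) and 0.57 for sleeve gastrectomy over sham (SE 0.34, adjusted p = 0.994), and neither passed. Most of the reads (221 of 303) came from circRNA1269, which is exon 2 alone, 233 bases at chr5:62141094-62141326 on the minus strand. That single-exon circle had 6 and 19 reads in relapse libraries, 8, 29, 32, 27 and 21 reads after sleeve gastrectomy, and 13, 17, 7, 22 and 20 reads in sham libraries, with a log2 fold change of -1.21 for relapse over sleeve gastrectomy (SE 0.54, adjusted p = 0.981). Trim33, a regulator of Smad4 signalling, had 162 and 161 RPM in relapse libraries, 0.0 to 240 RPM after sleeve gastrectomy and 33.1 to 372 RPM in sham libraries.

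Among cullins, Cul3, the scaffold for BTB-domain adaptors, led with 27 reads in 8 libraries, and the cullin adaptors were better covered. Fbxw4 had 650 and 725 RPM in relapse libraries, 898, 688, 378, 688 and 548 RPM after sleeve gastrectomy, and 695, 495, 677, 602 and 697 RPM in sham libraries, so relapse and sham lay inside the sleeve gastrectomy range. In Fbxw4, 3 circles start at the same exon, exon 2, and held 181 of its 186 reads, 97.3%. The largest, circRNA2201, reaches exon 5 (chr1:265386053-265401005, minus strand) and had 127 reads. Fbxo42, which has been tied to p53 turnover, had 325 and 134 RPM in relapse libraries, 103 to 491 RPM after sleeve gastrectomy and 46.5 to 573 RPM in sham libraries, and 63 of its 78 reads came from exons 2 and 3 (chr5:159691389-159693180, plus strand). Fbxl5, the iron-sensing adaptor that controls iron regulatory protein, had 21 reads in 9 libraries and was not tested.

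Fbxo9 had the largest log2 difference between sleeve gastrectomy and sham among the 4 tested adaptors. It had 54.1 and 134 RPM in relapse libraries, 284, 98.3, 216, 393 and 342 RPM after sleeve gastrectomy, and 33.1, 0.0, 0.0, 0.0 and 232 RPM in sham libraries. Sham library 5 overlapped the sleeve gastrectomy range, all 5 sleeve gastrectomy livers were above the 4 other sham livers, and 4 of the 5 were above both relapse livers. In sleeve gastrectomy over sham its log2 fold change was 2.22 (SE 1.07, edgeR adjusted p = 0.994) and did not pass. Fbxo9 passed the filter only through the sleeve gastrectomy libraries, where it was high, so this test is not independent of that filter. Leaving out 1 library moved it between 1.94 and 4.12. The largest value was without sham library 5, which leaves 1 read in the sham group.

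The most abundant host of all was Usp32, an endosomal deubiquitinase. It had 2111 and 1585 RPM in relapse libraries, 1796, 491, 1402, 1114 and 822 RPM after sleeve gastrectomy, and 1523, 1486, 1301, 1855 and 1255 RPM in sham libraries. Relapse overlapped both other groups, and sleeve gastrectomy liver 2 was the lowest. The log2 fold change was 0.67 for relapse over sleeve gastrectomy (SE 0.38, edgeR adjusted p = 0.9997) and -0.40 for sleeve gastrectomy over sham (SE 0.30, adjusted p = 0.994). Usp32 also had the most circles of any member, 27, led by circRNA402 of exons 4 to 6 (chr10:72369080-72371838, minus strand) with 190 of its 392 reads. That circle had 22 and 33 reads in relapse libraries, 25, 6, 14, 13 and 10 reads after sleeve gastrectomy, and 9, 5, 13, 23 and 17 reads in sham libraries. A second one, of exons 20 and 21 (chr10:72329606-72332113), had 10 and 0 reads in relapse libraries, 0, 0, 2, 6 and 7 reads after sleeve gastrectomy, and 21, 15, 2, 2 and 0 reads in sham libraries, and so was uneven within each group.

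Usp7, which removes ubiquitin from p53 and its ligase Mdm2, was lowest in sham livers. It had 541 and 403 RPM in relapse libraries, 473, 540.5, 809, 164 and 274 RPM after sleeve gastrectomy, and 165, 0.0, 0.0, 351 and 0.0 RPM in sham libraries. Both relapse livers lay above all 5 sham livers, and 3 of the 5 sleeve gastrectomy livers did. Relative to sham, its log2 fold change was 2.04 in relapse (SE 0.88, edgeR adjusted p = 0.816) and 1.98 after sleeve gastrectomy (SE 0.73, adjusted p = 0.962), and neither passed. Leaving out 1 library moved them between 1.73 and 3.01 and between 1.67 and 2.95, and both were largest without sham library 4. These differences share the 5 sham libraries and are not independent of each other. The sham libraries of Usp7 alone would not have passed the filter, so both tests also depend on that filter.

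Almost all of that came from 1 junction. The authors' type for it is intronic, it is listed as ciRNA180, and it lies at chr10:6991635-6992636 on the plus strand. It held 81 of the 86 Usp7 reads: 10 and 14 in relapse libraries, 10, 11, 15, 5 and 6 after sleeve gastrectomy, and 5, 0, 0, 5 and 0 in sham libraries. Its log2 fold change over sham was 2.29 in relapse (SE 0.92, edgeR adjusted p = 0.706) and 2.19 after sleeve gastrectomy (SE 0.77, adjusted p = 0.926). The junction is written under an Ensembl identifier, and such entries rarely hold a single read: in the members 0.781% of the values above 0 in identifier entries were 1 read, against 42.3% in entries named by symbol. A listed 0 in sham libraries 2, 3 and 5 may therefore stand for 1 read. The remaining 4 Usp7 junctions had 5 reads between them, and with symbol entries alone Usp7 could not be tested.

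Usp24, a large deubiquitinase, had 0 reads in all 5 sham libraries, with 0 and 10 reads in relapse libraries and 4, 5, 2, 0 and 0 reads after sleeve gastrectomy. The libraries with reads were thus 1 relapse liver and 3 sleeve gastrectomy livers, and 3 of the 7 livers of these groups had none, like the sham livers. Against the limit of 3 reads over the sham group, 27.5 RPM, the pooled level was 6.53-fold higher in relapse (180 RPM) and 3.34-fold higher after sleeve gastrectomy (91.8 RPM). These ratios allow for counting error in the sham group only and take the other levels as exact, with all 10 relapse reads in library 2. Usp24 passed the filter only through the groups where it had reads, so its tests over sham are not independent of that filter. The edgeR tests over sham gave an adjusted p = 0.816 for relapse and 0.994 for sleeve gastrectomy, and neither passed. The 21 reads were spread over 10 junctions along the gene, the largest with 5 reads, so no single circle carried them.

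**Figure D4:**
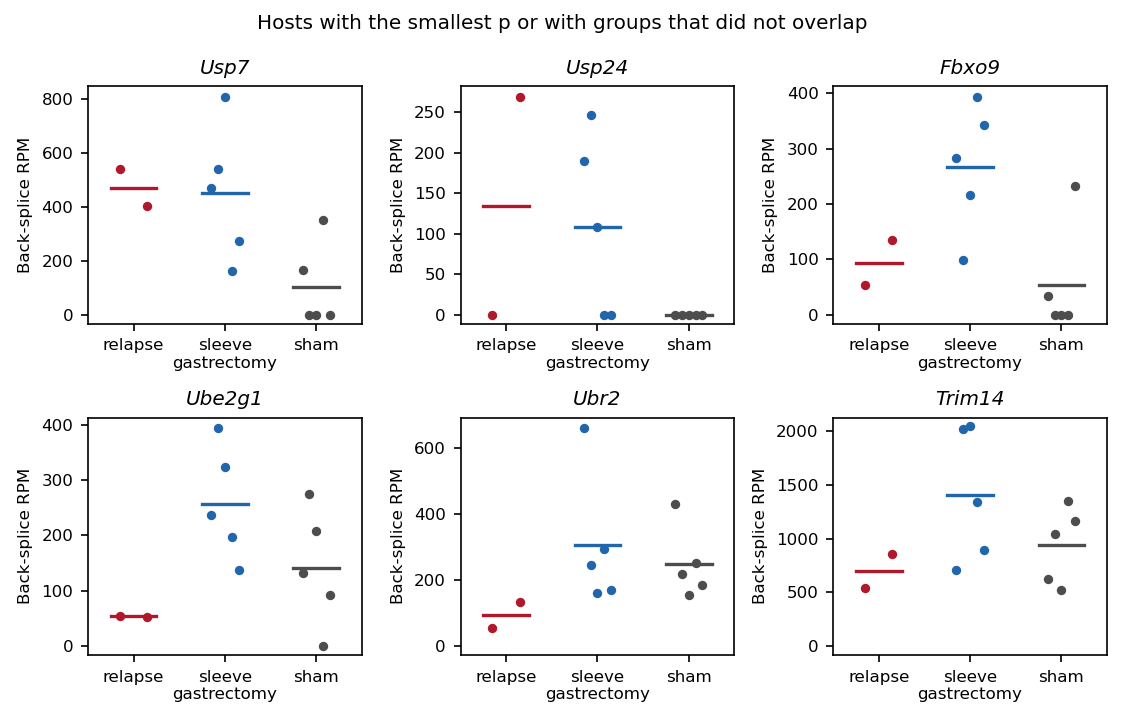
Back-splice level (RPM) per library of 6 hosts, with relapse, sleeve gastrectomy and sham from left to right and a line at each group mean. Usp24 was at 0 in all 5 sham libraries. Ubr2 was lower in both relapse libraries than in the 10 others, by less than 1 read is worth.

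Across the whole set, no member host passed the threshold in any comparison. At an edgeR adjusted p under 0.05, 0 of 25 tested members were called in relapse over sleeve gastrectomy (0.146% of all 1368 tested hosts), 0 of 25 in relapse over sham (0.0731% of all) and 0 of 25 in sleeve gastrectomy over sham (0.146% of all). At an unadjusted p under 0.05 there was 1 member in relapse over sleeve gastrectomy (Trim14; 4.09% of all hosts), 2 in relapse over sham (Usp24 and Usp7; 5.56%) and 3 in sleeve gastrectomy over sham (Fbxo9, Usp24 and Usp7; 3.29%). The sham libraries of Fbxo9, Usp24 and Usp7 alone would not have passed the filter, so their tests over sham are not independent of it. DESeq2 and limma-voom also called 0 members in each comparison. With so few calls over the whole table, 0 of 25 is near the background rate.

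Few members had groups that did not overlap. In relapse against sleeve gastrectomy, 2 of 25 members lay lower in every relapse library (Ube2g1 and Ubr2; 4.46% of all hosts) and 0 lay higher (5.26%). In relapse against sham, 1 lay higher (Usp7; 5.26%) and 1 lower (Ubr2; 4.75%), and in sleeve gastrectomy against sham 0 lay higher (0.585%) or lower (0.365%). A log2 fold change above 0 was found in 15 of 25 members for relapse over sleeve gastrectomy (46.2% of all hosts), 15 of 25 for relapse over sham (46.6%) and 16 of 25 for sleeve gastrectomy over sham (51.5%). The median log2 fold change of the tested members was 0.20, 0.27 and 0.20 in these comparisons, against -0.07, -0.06 and 0.03 for all tested hosts. The 3 comparisons share libraries, so these counts are not separate observations.

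**Figure D5:**
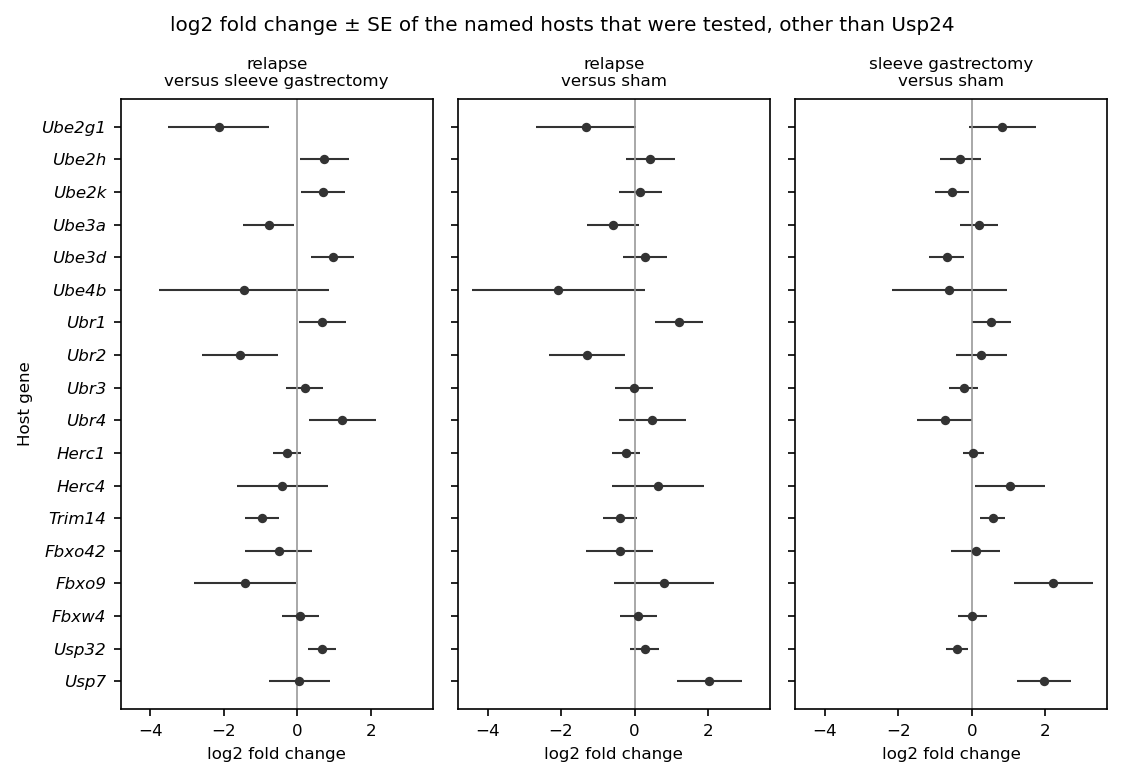
log2 fold change with its standard error for the tested hosts that the naming rule gives, other than Usp24, whose sham libraries were all at 0, in relapse versus sleeve gastrectomy, relapse versus sham, and sleeve gastrectomy versus sham. Points lie on both sides of 0 in each panel, and the bars are widest for hosts with few reads such as Ube4b.

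Single junctions gave the same picture. Of the 468 member junctions, 23 could be tested, and 0 passed an edgeR adjusted p under 0.05 in relapse over sleeve gastrectomy (0.0% of all 1519 tested junctions), relapse over sham (0.0%) and sleeve gastrectomy over sham (0.0%). An unadjusted p under 0.05 was reached by 2 in relapse over sleeve gastrectomy (circles of Trim14 and Ube3d; 4.81% of all), 2 in relapse over sham (Usp7 and Ube3d; 5.79%) and 1 in sleeve gastrectomy over sham (Usp7; 3.88%). Groups did not overlap for 2 junctions higher in relapse than in sleeve gastrectomy (4.74%): a Ube2h circle of exons 2 and 3 (chr4:57560122-57561542) with 8 and 10 reads in relapse libraries and 3, 0, 3, 6 and 5 reads after sleeve gastrectomy, and circRNA2572 of Ubr1 (2 exons, chr3:112818733-112820089) with 12 and 11 reads against 5, 6, 5, 7 and 8. For circRNA2572 the gap in RPM was far less than 1 read is worth. Relapse library 2 held 37229 back-splice reads and sleeve gastrectomy library 2 held 20352, so their 11 and 6 reads were almost the same level. No junction lay lower in relapse than in sleeve gastrectomy (4.48%). In relapse against sham the Usp7 junction alone lay higher in every library (6.19%) and 0 lay lower (5.33%), and in sleeve gastrectomy against sham 0 lay higher (0.461%) or lower (0.527%). A log2 fold change above 0 was found in 12 of 23 junctions for relapse over sleeve gastrectomy (46.9% of all), 11 of 23 for relapse over sham (47.6%) and 13 of 23 for sleeve gastrectomy over sham (49.6%). Trim33, Ube2d2, the Ube2h circle of exons 2 and 3, the Usp32 circle of exons 20 and 21 and circRNA2414 of Ube3d were named after their values were seen.

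In form the member circles were like those of other hosts. Intronic circles made up 11.97% of member junctions and 13.6% of the junctions of other hosts, the median exonic circle spanned 3 exons in both, and the median genomic span was 5648.5 bases and 5547 bases. The 56 intronic member junctions held 285 reads, 81 of them in the Usp7 junction, and 52 of the 56 had fewer than 10 reads. Members had 4.42 junctions per host and other hosts 3.23, and 64.3% of member junctions were read in a single library, against 60.6% of the others. The first exon of a gene lacks the splice site that a back-splice needs, and circles starting at exon 1 were 0.504% of the exonic member circles named by symbol and 0.459% of those of other hosts. Exon 2 was the first exon of 21.4% of these member circles, which held 36.7% of their reads, and of 22.1% and 36.3% in other hosts. Among circles with at least 20 reads, 10 of 24 in members and 31.4% in other hosts started at exon 2. The main circles of Trim14, Fbxw4, Ube2h, Ube2k, Ubr3 and Fbxo42 were of this kind, whereas those of Herc1 and Usp32 lay inside the gene.

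The rest of the ubiquitin system, taken from lists of 359 further genes, also gave no call. Of these, 208 had a circle and 58 could be tested. Genes were named from a list for a call, the highest level or the smallest p, so they do not stand for the rest of it. With edgeR, 0 of 58 were called in relapse over sleeve gastrectomy (0.146% of all 1368 tested hosts), relapse over sham (0.0731%) and sleeve gastrectomy over sham (0.146%). At an unadjusted p under 0.05 there was 1 in each (4.09%, 5.56% and 3.29% of all hosts). A log2 fold change above 0 was found in 28 of 58 for relapse over sleeve gastrectomy (46.2% of all hosts), 25 for relapse over sham (46.6%) and 25 for sleeve gastrectomy over sham (51.5%). Activating enzymes and their relatives had circles in 6 of 10 genes and none could be tested. Other deubiquitinases were led by Mindy3, with 974 and 1665 RPM in relapse libraries, 1032 to 2835 RPM after sleeve gastrectomy and 1304 to 3644 RPM in sham libraries. Atxn3, a deubiquitinase mutated in a spinocerebellar ataxia, had 812 and 591 RPM in relapse libraries, 162 to 426 RPM after sleeve gastrectomy and 385 to 729 RPM in sham libraries. Both relapse livers lay above every sleeve gastrectomy liver, as in 5.26% of all tested hosts (log2 fold change 1.09, SE 0.59, edgeR adjusted p = 0.9997).

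Ligases outside the name rule were led by Rnf14 and Rnf125. Rnf125 had 1462 and 1880 RPM in relapse libraries, 1425 to 2818 RPM after sleeve gastrectomy and 1981 to 2929 RPM in sham libraries. Rnf4, which recognises SUMO-modified proteins, had 379 and 269 RPM in relapse libraries, 0.0, 0.0, 216, 262 and 171 RPM after sleeve gastrectomy, and 364, 440.1, 468, 501 and 279 RPM in sham libraries, so every sleeve gastrectomy liver lay below every relapse and sham liver (log2 fold change of sleeve gastrectomy over sham -1.54, SE 0.71, edgeR adjusted p = 0.994). The highest sleeve gastrectomy value of Rnf4 was under the lowest relapse and sham values by less than 1 read is worth. Among the cullin partners, Dcaf6 had 487 and 645 RPM in relapse libraries, 274 to 425 RPM after sleeve gastrectomy and 156 to 451 RPM in sham libraries (log2 fold change of relapse over sham 0.96, SE 0.67, adjusted p = 0.967). The lower relapse value of Dcaf6 was above the highest sham value by less than 1 read is worth in those libraries. Of the proteasome list, the subunit Psma3 had 379 and 349 RPM in relapse libraries, 0.0 to 162 RPM after sleeve gastrectomy and 0.0 to 275 RPM in sham libraries (log2 fold change of relapse over sleeve gastrectomy 2.06, SE 1.28, adjusted p = 0.9997). Relapse lay wholly above sleeve gastrectomy in 5.26% of all tested hosts, as for Rnf4, Dcaf6 and Psma3. It lay wholly above sham in 5.26%, as for Dcaf6 and Psma3. Sleeve gastrectomy lay wholly below sham in 0.365% of all tested hosts, as for Rnf4. Rnf4, Dcaf6 and Psma3 were picked for the smallest p of their lists, so they are no sample to set against these rates. Other genes named from the lists had a lower mean in relapse, with single libraries that overlapped both other groups. Brca1, a ligase of DNA repair, had 0 reads in both relapse libraries, 9, 0, 0, 0 and 9 reads after sleeve gastrectomy, and 6, 0, 3, 7 and 5 reads in sham libraries. Against the limit of 3 reads over the relapse group, the pooled level was 2.79-fold higher after sleeve gastrectomy (edgeR adjusted p = 0.9997) and 3.58-fold higher in sham (adjusted p = 0.845). These ratios take the sleeve gastrectomy and sham levels as exact, and Brca1 passed the filter only through those groups. It was the gene of the lists at an unadjusted p under 0.05 in both relapse comparisons. Huwe1, a HECT ligase, had 162 and 0.0 RPM in relapse libraries, 94.5 to 295 RPM after sleeve gastrectomy and 0.0 to 301 RPM in sham libraries, with a log2 fold change of -1.59 for relapse over sleeve gastrectomy (SE 1.45). Dcaf5, a cullin partner, had 0.0 and 53.7 RPM in relapse libraries, 49.1 to 328 RPM after sleeve gastrectomy and 0.0 to 301 RPM in sham libraries, with a log2 fold change of -2.34 for the same comparison (SE 1.63). None of the genes named from these lists passed the test.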

How the data were processed

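Back-splice reads were measured in 12 rat liver libraries depleted of ribosomal RNA and treated with RNase R. The deposited table gives per circRNA and library a whole-number count, read here as the raw back-splice read count, and a deposited signal called SRPBM, which was the count times 1 constant per library and was not used further. Per the submitters' processing notes, cutadapt 1.9, FastQC and TopHat2 2.0.10 were used with the rat build Rnor_6.0; the back-splice caller is not given in the sources used here. Coordinates follow Rnor_6.0 and count from 1; starts in the deposited table are counted from 0 in some entries and from 1 in others and were brought to 1, which showed 808 junctions, 24 of them in members, to be written as 2 entries. Counts were summed per host gene and per junction.

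Both were tested over the whole table with edgeR 4.0.16 in R 4.3.3 (filterByExpr, minimum count 5 and minimum total 15; TMM; 1 mean per group over all 12 libraries; robust quasi-likelihood F-test; Benjamini-Hochberg over all features; threshold 0.05). The standard error is the absolute log2 fold change divided by the square root of F. Simulated counts with known changes were tested first. Alternatives were DESeq2 1.42.0, limma-voom (limma 3.58.1), other filters and scalings, other joins of identifiers, a replicate block and leaving out each library. Hosts were named for a call, the 6 smallest p in each comparison, the 12 highest levels, the largest of each name group or the 5 with most junctions; junctions by a like rule (a call, the 10 highest levels, the 3 smallest p, the 5 steadiest read in every library). Members and lists were chosen with earlier results of these data known. Intervals and limits cover counting error only. Same-numbered libraries of different groups correlated at -0.0719 to 0.0185 after group means were removed, so numbers were not used to pair samples. With counts this sparse, such values cannot exclude pairing. Results of 1 tested host are not reported here on their own.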

Additional observations from a re-analysis of the deposited data

Results flagged for a closer look

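In 9 of 92 groups of 5 libraries, 1 library stood apart from the 4 others by Dixon's test at the 95% level. Chance flags about 1 group in 20 where values are normally distributed. Sparse counts are not, so 9 of 92 cannot be set against that rate. Sham library 5 was high for Fbxo9 (232 RPM, others 0.0 to 33.1 RPM), for Ube4b (325 RPM, others 0.0 to 52.1 RPM) and for the Ube3d circle of exons 7 and 8 (279 RPM, others 0.0 to 55.0 RPM). Sham library 3 was high for Herc4 (573 RPM, others 0.0 to 165 RPM) and low for the main Ube2h circle (260.3 RPM, others 385 to 418 RPM). Sham library 4 was high for Ubr1 (552 RPM, others 165 to 265 RPM) and for the share of reads taken by all Ubr genes (0.251%, others 0.138% to 0.167%). After sleeve gastrectomy, library 2 was high for Ube4b (246 RPM, others 0.0 to 34.2 RPM) and library 1 for Ubr2 (662 RPM, others 162 to 295 RPM). Many of these levels rest on fewer than 10 reads.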

How the results depend on the processing

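No member host or junction was called in any comparison under any alternative run, and the 27 named fold changes kept their sign and stayed short of the threshold in all 551 fold changes recomputed; 1 setting, Usp24 in relapse over sham without relapse library 2, left no reads in either group and gave no value. With the replicate number as a block, 0 members were called. Whether same-numbered libraries are paired cannot be settled with counts this sparse. Counting junctions as entries were deposited, chosen after seeing the data, also called 0. The member share moved by more than 1 SD with symbol entries alone (1.39% in relapse, 1.46% in sham), with identifiers also joined by junction (1.36% in relapse) and over host-assigned reads (1.46% in relapse, 1.39% in sham). With symbol entries alone, shares of Usp were 0.389% in relapse and 0.328% in sham, of Trim 0.125% and 0.184%, of Fbxo 0.0644% in relapse, of Fbxw 0.121% in relapse and 0.102% after sleeve gastrectomy, and of Herc 0.208%, 0.241% and 0.237% in relapse, sleeve gastrectomy and sham. Usp was 0.361% in relapse when joined by junction; over host-assigned reads, relapse had 0.391% for Usp, 0.109% for Trim and 0.0507% for Fbxo. The cause was not tested beyond the denominators these settings change. Leaving out 1 library moved Fbxo9 (sleeve gastrectomy over sham) between 1.94 and 4.12 and Usp7 between 1.67 and 2.95. Depth limits most members: in the smallest library a gene with no reads may still be at 165 RPM.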
